A study of Mus musculus with 2 samples.

Results

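The 10 hairpin genes described here, Mir770, Mir673, Mir493, Mir337, Mir540, Mir665, Mir431, Mir433, Mir127 and Mir434, form the upstream end of the microRNA (miRNA) array in the imprinted Dlk1-Dio3 region of mouse chromosome 12. They were chosen by symbol, from the gene names that GENCODE M21 gives to the identifiers of the count tables, and they are 10 of 1973 miRNA genes counted. Small RNA was sequenced from hindbrain of healthy B6NCrl mouse embryos, pooled over both sexes, at embryonic day 12.5. The series has 1 group of 2 libraries, biological replicate 1 from a pool of 120 embryos and biological replicate 2 from a pool of 88, with no treatment, genotype or time contrast. Both pools carry the same donor label, so only the replicate numbers and pool sizes tell them apart. A test between them asks only whether these libraries differ beyond counting error, and does not measure the spread among replicates. Whole hindbrain holds many cell types, and in such bulk tissue fewer cells of a type and less RNA per cell cannot be told apart.

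In an imprinted region, a gene is expressed mainly from the chromosome of a single parent. The protein-coding genes of Dlk1-Dio3, among them Rtl1, a gene derived from a retrotransposon and required in the placenta, are expressed from the paternal chromosome. The noncoding RNAs, which include Meg3, the anti-Rtl1 transcript and the long miRNA array that ends in Mirg, come from the chromosome inherited from the mother and are plentiful in embryo and brain. A miRNA is cut as a short arm from a hairpin precursor, and bases 2 to 8 of the arm, the seed, pair with target messenger RNAs. The hairpins of the anti-Rtl1 transcript are known for directing cleavage of the Rtl1 messenger RNA, to which they are fully complementary. The pooled libraries do not separate the parental chromosomes, and Meg3 and Rtl1 RNA were not measured.

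The 4 hairpins Mir431, Mir433, Mir127 and Mir434 lie inside the coding sequence of Rtl1 on the other strand, and their arms are shown first because they held most of the counts. All 10 genes matched the RefSeq miRNA table (GRCm38.p6), which gives 2 arms for each. Each line is an arm, 5′ to 3′, with the seed in capitals.
miR-431-5p: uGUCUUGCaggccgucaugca
miR-431-3p: cAGGUCGUcuugcagggcuucu
miR-433-5p: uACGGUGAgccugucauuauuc
miR-433-3p: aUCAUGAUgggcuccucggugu
miR-127-5p: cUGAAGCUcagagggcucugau
miR-127-3p: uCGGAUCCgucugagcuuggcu
miR-434-5p: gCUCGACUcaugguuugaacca
miR-434-3p: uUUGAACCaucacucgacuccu
All 8 of these arms had a full-length complement in the Rtl1 coding sequence and in no other protein-coding gene of GENCODE M21. None of the 12 arms of the other 6 hairpins had one in any protein-coding transcript. Of 1674 distinct mature sequences in the RefSeq table, 59 (3.52%) had a full-length complement in a protein-coding transcript, and for 11 of the 59 it was in Rtl1. The remaining 3 of those 11 belong to miR-136 and miR-432, which lie just downstream. The complement follows from the position of the hairpins opposite the coding exon and is not a measurement of pairing. The Rtl1 sequence that matches miR-127-3p reads agccaagctcagacGGATCCGa in the direction of the messenger RNA, with the seed match in capitals.

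The arms of the hairpins upstream of Rtl1 are shown for their seeds, again in capitals. The arms miR-673-3p and miR-540-5p are left out.
miR-770-5p: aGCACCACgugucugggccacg
miR-770-3p: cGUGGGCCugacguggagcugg
miR-673-5p: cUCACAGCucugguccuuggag
miR-493-5p: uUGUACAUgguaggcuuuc
miR-493-3p: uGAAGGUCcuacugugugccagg
miR-337-5p: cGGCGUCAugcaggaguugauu
miR-337-3p: uCAGCUCCuauaugaugccuuu
miR-540-3p: aGGUCAGAggucgauccugg
miR-665-5p: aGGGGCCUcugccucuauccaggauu
miR-665-3p: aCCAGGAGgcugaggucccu
The 20 arms carried 20 different seeds, so no 2 members shared a seed. For 18 of the 20 the seed was found in no other mouse miRNA of the table, against 1211 of 1679 mature names (72.1%) in all. The exceptions were miR-673-5p, which shares its seed with miR-6985-3p, and miR-540-3p, which shares its seed with miR-6915-5p. Unlike many large miRNA clusters, whose members repeat a seed, these hairpins had no repeated seed among themselves.

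Mir431 and Mir434 repeated a run of bases between their own arms, and their hairpins are shown for that feature, with both arms in capitals. Mir431 spans chr12:109590447-109590537 and Mir434 spans chr12:109594506-109594599, both on the plus strand of GRCm38.
Mir431: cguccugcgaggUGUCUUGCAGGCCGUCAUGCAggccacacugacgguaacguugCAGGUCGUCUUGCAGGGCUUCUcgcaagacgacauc
Mir434: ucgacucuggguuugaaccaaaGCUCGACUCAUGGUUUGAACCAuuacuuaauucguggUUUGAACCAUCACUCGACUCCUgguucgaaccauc
The arms of Mir431 shared the 10 bases gucuugcagg, and the arms of Mir434 shared the 9 bases uuugaacca. In the other 8 members the longest run common to both arms was between 3 and 6 bases. Over 677 hairpins with both arms in the table the median was 4, and 10 hairpins (1.48%) reached 8 or more. The only run of 8 or more bases common to arms of different members was cgucaugca, of 9 bases, in miR-337-5p and miR-431-5p. None of the 10 hairpins shared an identical run of 20 bases with another miRNA hairpin, whereas 1084 of 2202 M21 miRNA genes (49.2%) did. Reads matching several positions, which are in no gene's count, made up 32.7% of all reads in replicate 1 and 33.4% in replicate 2. The GC content of the member hairpins ran from 45.7% in Mir434 to 70.2% in Mir770, with a median of 51.7% over all 1005 hairpins of the table.

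The members span chr12:109563692-109594599 on the plus strand, a stretch of 30.9 kb. Mir770 lies at 109563692 to 109563785 within Meg3 (109541001 to 109571726) and overlaps an exon in 1 of its 11 annotated transcripts. Mir673, at 109571990 to 109572080, starts 263 bases past the annotated end of Meg3. Mir493 lies at 109580233 to 109580315. Mir337 (109585789 to 109585885), Mir540 (109586080 to 109586146) and Mir665 (109586314 to 109586407) are packed together, 194 and 167 bases apart, and end 2785 bases before Rtl1 begins on this coordinate. Mir337 overlaps Mir3544, a miRNA gene annotated on the minus strand. Mir433 (109591715 to 109591838) and Mir127 (109592846 to 109592915) lie between Mir431 and Mir434, all within Rtl1, which runs from 109589193 to 109600330 on the minus strand.

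**Figure D1:**
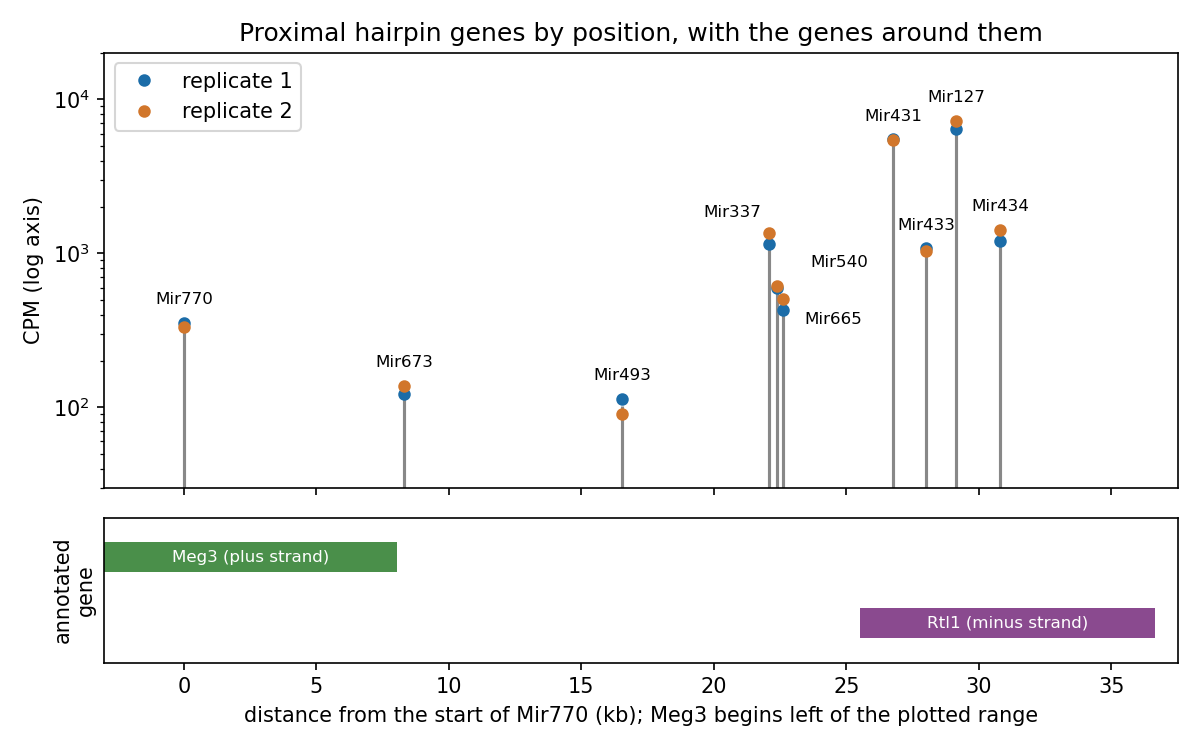
Level of the 10 hairpin genes (CPM, log axis, 1 point per library, grey line to the mean) against distance from the start of Mir770 in kb, with the annotated extent of Meg3 and Rtl1 below. The highest points, Mir127 and Mir431, lie opposite Rtl1, and the lowest, Mir493 and Mir673, lie between Meg3 and the Mir337 group.

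On the gene's own strand, the miRNA counts summed to 2764276 in replicate 1 and to 3946444 in replicate 2. Levels are counts per 1000000 of these (CPM) and sum both arms of a hairpin, so which arm was the abundant one was not measured. A read covers a whole mature miRNA, so no length scaling was applied, and ligation preferences of small RNA libraries limit comparisons between different miRNAs. Intervals are exact Clopper-Pearson 95% intervals, which cover counting error only. All 10 members reached 10 counts in each library and are called detected, as were 371 of all 1973 genes. Among the marker lists, the Hox-cluster miRNAs Mir10a and Mir10b of hindbrain held 4.23% and 4.04% of the counts in replicates 1 and 2. The neural list of Mir137, Mir9 and Mir124 genes held 0.365% and 0.375%, with 3 of the 6 genes present in the tables detected. All Mir9 and Mir124 genes share a 20-base run with another hairpin, so their reads that match several positions are missing and this share understates the list.

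The 4 hairpins opposite Rtl1 held most of the proximal counts in both libraries. Together they made up 83.7% of the counts of the 10 genes in replicate 1 and 83.3% in replicate 2. Their summed share of all miRNA counts was 1.42% (95% interval 1.41% to 1.44%) in replicate 1 and 1.52% (1.504% to 1.529%) in replicate 2. Their median level was 3344 and 3429 CPM, against 429 and 502 CPM for the 5 hairpins between Meg3 and Rtl1.

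Mir127, among the earliest miRNAs found to be imprinted, was the highest member. It had 17825 counts or 6448 CPM in replicate 1 and 28667 counts or 7264 CPM in replicate 2, a mean of 6856 ± 577 CPM (SD, n = 2), and ranked 35 of 1973 genes. Mir431, which lies farthest into the 3′ part of the Rtl1 coding sequence among the 4, had 15179 counts (5491 CPM) and 21466 counts (5439 CPM), a mean of 5465 ± 36.6 CPM at rank 44. The ratio of Mir127 to Mir431 was 1.17 in replicate 1 and 1.34 in replicate 2, and their ranges over the libraries did not overlap. These 2 hairpins alone gave 70.4% and 69.8% of the proximal counts.

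Mir434 and Mir433 were several-fold lower than their neighbours in the same coding sequence. Mir434 had 3310 counts (1197 CPM) and 5599 counts (1419 CPM), a mean of 1308 ± 157 CPM. Mir433 had 2973 counts (1076 CPM) and 4116 counts (1043 CPM), a mean of 1059 ± 23.0 CPM. Mir433 sits between Mir431 and Mir127, 1177 bases from the former and 1007 bases from the latter. In the 2 libraries Mir431 exceeded it by 5.11-fold and 5.22-fold, and Mir127 by 6.0-fold and 6.96-fold. Mir127 exceeded Mir434 by 5.39-fold and 5.12-fold. Each of these gaps was larger than the spread between the libraries.

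**Figure D2:**
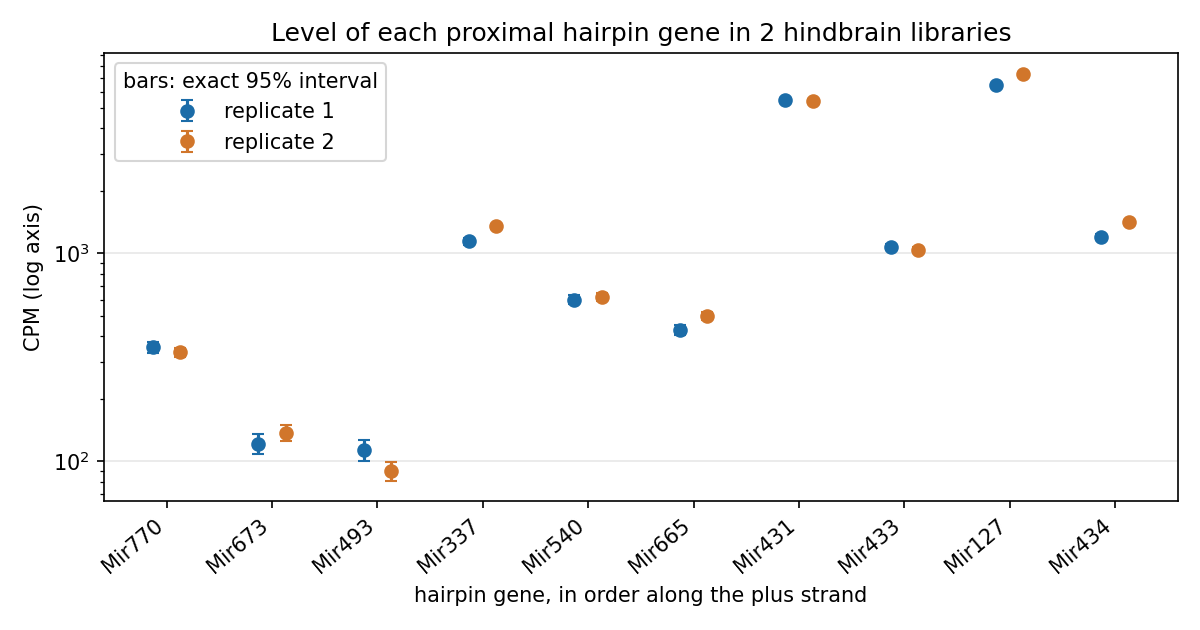
CPM of each hairpin gene on a log axis in order along the plus strand, 1 point per library with its exact 95% interval. The points of the libraries lie close together for every gene, while the genes run from 101 CPM for Mir493 to 6856 CPM for Mir127 on average.

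The close-packed group just before Rtl1 had intermediate levels. Mir337 had 3161 counts (1144 CPM) and 5334 counts (1352 CPM), a mean of 1248 ± 147 CPM. Mir540 had 1656 counts (599 CPM) and 2438 counts (618 CPM), a mean of 608 ± 13.2 CPM. Mir665 had 1186 counts (429 CPM) and 1980 counts (502 CPM), a mean of 465 ± 51.4 CPM. Although they are close neighbours on the chromosome, they fell in steps in both libraries. Mir337 exceeded Mir540 by 1.91-fold and 2.19-fold, and Mir540 exceeded Mir665 by 1.40-fold and 1.23-fold. Over the next gap, of 4.04 kb, the level went up, and Mir431 exceeded Mir665 by 12.8-fold and 10.8-fold in the libraries.

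The 3 hairpins of the Meg3 side were the lowest of the members. Mir770, inside Meg3, had 976 counts (353 CPM) and 1319 counts (334 CPM), a mean of 344 ± 13.3 CPM. Mir673 had 335 counts (121 CPM) and 541 counts (137 CPM), a mean of 129 ± 11.2 CPM. Mir493 had 312 counts, or 113 CPM with an interval of 101 to 126, in replicate 1 and 355 counts, or 90.0 CPM with an interval of 80.8 to 99.8, in replicate 2. Together they held 0.0587% of the counts in replicate 1 and 0.0561% in replicate 2. Mir337, the next hairpin along the strand, exceeded Mir493 by 10.1-fold and 15.0-fold. Mir673 and Mir493 were the members below the median of the detected genes, which was 183 CPM.

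Ordered by mean level, the members ran Mir127, Mir431, Mir434, Mir337, Mir433, Mir540, Mir665, Mir770, Mir673 and Mir493. All 9 neighbouring pairs had the same order in both libraries, and in 8 of them the ranges over the libraries did not overlap. The exception was Mir434 and Mir337, which differed by 1.05-fold in each library, less than the spread between the libraries. Mir673 and Mir493 differed by 1.07-fold in replicate 1, where their intervals overlapped, and by 1.52-fold in replicate 2. The highest member exceeded the lowest by 57.1-fold and 80.8-fold in the libraries. With 2 libraries an exact sign-flip test cannot give a p below 0.5, so the order was not tested.

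**Figure D3:**
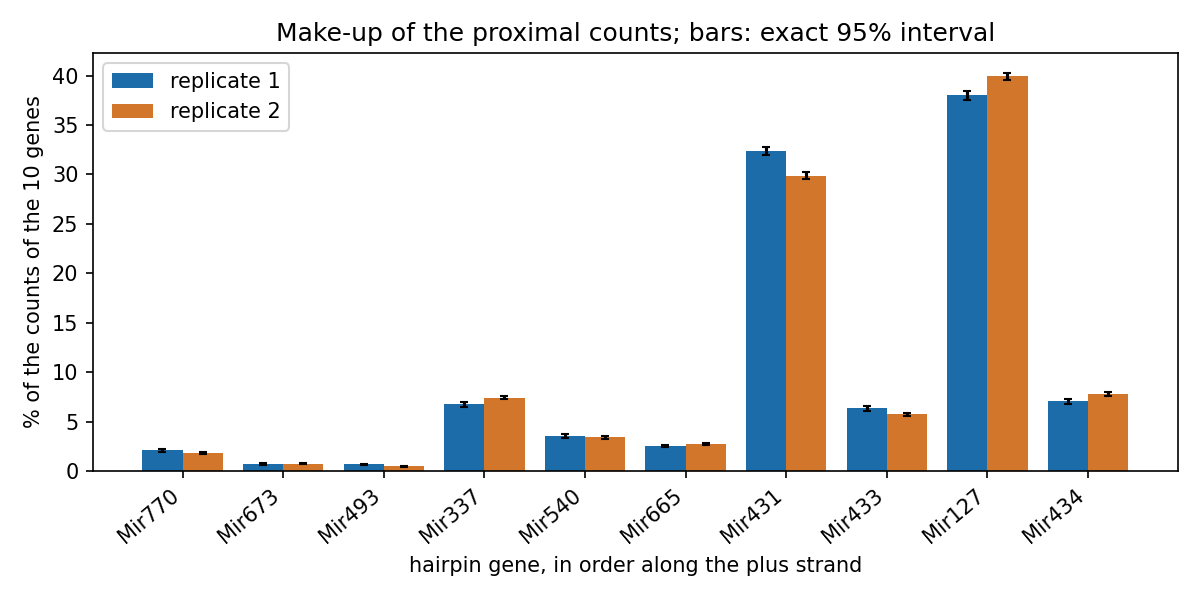
Share of each hairpin gene in the summed counts of the 10 genes (%), 1 bar per library with its exact 95% interval. Mir127 (38.0% and 39.9%) and Mir431 (32.4% and 29.9%) stand far above the rest, and no other gene exceeds 7.80%.

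The make-up of the proximal counts was close in the libraries but not identical. Mir127 held 38.0% (37.6% to 38.4%) of them in replicate 1 and 39.9% (39.6% to 40.3%) in replicate 2. Mir431 moved the other way, from 32.4% (31.9% to 32.8%) to 29.9% (29.6% to 30.2%). Mir434 held 7.06% and 7.80%, Mir337 held 6.74% and 7.43%, and Mir433 held 6.34% and 5.73%. The intervals of the libraries did not overlap for these 5 genes, nor for Mir770 (2.08% and 1.84%) and Mir493 (0.665% and 0.494%). The shares of the 10 genes sum to a fixed total, so they do not vary independently.

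No member differed between the libraries by the criteria of adjusted p under 0.05 and at least 2-fold. Each gene was tested by an exact binomial test, two-sided, and p-values were adjusted by Benjamini-Hochberg over the 393 genes averaging 10 counts or more, 3.56% of which met both criteria. The test compares these libraries, not conditions. It sets their difference against counting error only, so a small p does not measure the spread among replicates. Without a minimum fold, 5 of 10 members passed, 4 higher and 1 lower in replicate 2, and the same 5 had an unadjusted p under 0.05. Of all genes tested, 51.7% passed in this way, 25.2% higher and 26.5% lower, so the share among the members was near the background. The 4 that were higher in replicate 2 were Mir434 (log2 ratio 0.24, exact adjusted p = 3.94e-14), Mir337 (0.24, 3.52e-13), Mir665 (0.23, 5.27e-05) and Mir127 (0.17, 3.96e-35). Mir493 was lower, with a log2 ratio of -0.33 and an exact adjusted p of 0.00815, the farthest of the members from equality at 1.25-fold. Mir770 (-0.08), Mir673 (0.18), Mir540 (0.04), Mir431 (-0.01) and Mir433 (-0.04) did not pass. The sign of Mir431 turned positive under TMM or DESeq2 scaling and without the most abundant gene. The median log2 ratio was 0.11 over the members and -0.04 over all genes tested, and the median absolute log2 ratio was 0.17 and 0.24. As summed shares, the marker lists of muscle (3.80-fold) and epithelium (1.49-fold) moved most between the libraries. The mesenchyme (1.19-fold, lower in replicate 2), erythroid (1.19-fold, higher) and endothelium (1.11-fold, lower) lists also moved more than the members (1.07-fold). The neural (1.03-fold) and Hox (1.05-fold) lists moved less. The mesenchyme sum fell with Mir214 (12145 to 9714 CPM), while Mir199a-1, Mir199a-2 and Mir199b rose. The erythroid sum rose with Mir451a (254 to 316 CPM), while Mir144 (23.2 to 23.1 CPM) and Mir486 (21.3 to 15.7 CPM) did not. The endothelium list was represented by Mir126a alone. The muscle list, with 4 of 7 genes detected, went from 0.0169% to 0.0640% of the counts. Most of it was Mir206, with 146 of 169 CPM in replicate 1 and 579 of 640 CPM in replicate 2. The epithelial list, with 7 of 7 detected, went from 0.966% to 0.647%. Without a minimum fold, 4 of its genes passed as lower in replicate 2 and 1 as higher. Mir429 (2950 to 1362 CPM) and Mir200c (1959 to 746 CPM) fell most, while Mir205 rose (1271 to 1459 CPM). The part of these lists in the differences of the members was not tested.

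**Figure D4:**
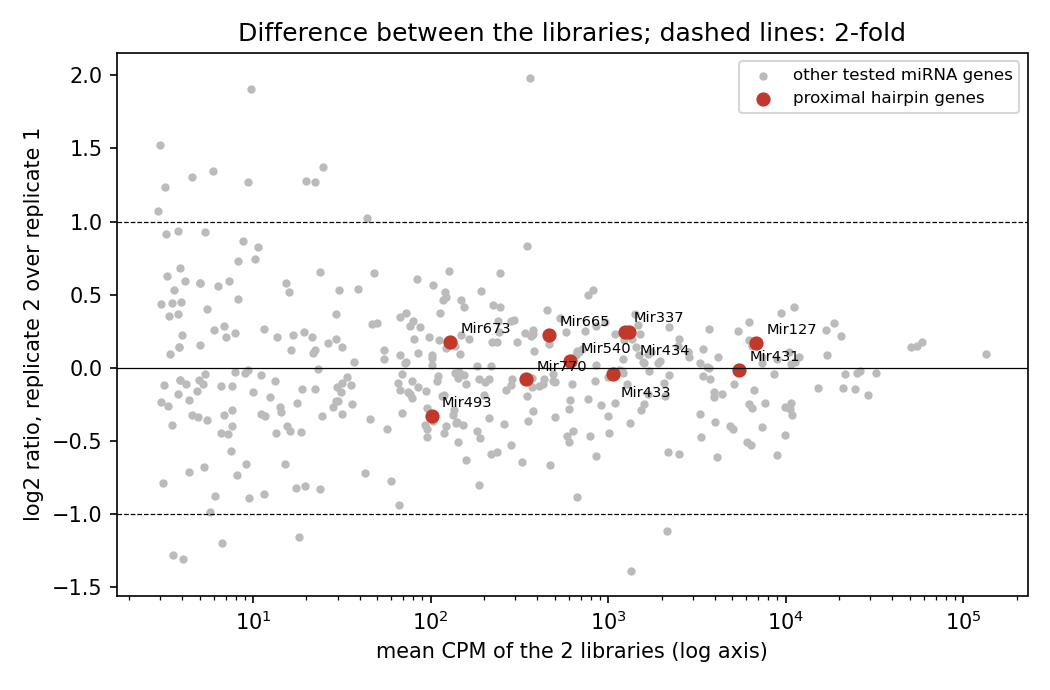
Log2 ratio of replicate 2 over replicate 1 against mean CPM (log axis) for the 393 tested miRNA genes, with the 10 proximal genes in red and dashed lines at 2-fold. All 10 lie between -0.33 and 0.24, inside the dashed lines.

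Summed, the 10 members held 1.70% of the counts (1.68% to 1.71%) in replicate 1 and 1.82% (1.81% to 1.83%) in replicate 2, a mean of 1.76% ± 0.0867 (SD, n = 2). The distal cluster, the long downstream part of the array that reaches into Mirg, held 4.43% and 4.73% by the 33 of 38 listed genes whose symbols are in the tables, 30 of them detected. The proximal sum was 0.383 of the distal sum in replicate 1 and 0.385 in replicate 2, so both ends of the array kept nearly the same proportion while their shares of the library differed by 1.07-fold. The median level was higher in the proximal group, at 837 and 830 CPM, than in the distal list, at 260 and 326 CPM. This difference was not tested, since an exact sign-flip test over 2 libraries cannot go below p = 0.5. The distal median leaves out the 5 listed genes without a matched symbol, Mir409 among them. It keeps listed genes with 0 counts, such as Mir654, and may therefore be too low. The ratio depends on which distal genes are counted. It was 0.292 and 0.298 when all 37 detected miRNA genes downstream were taken with both strands together, an alternative chosen after the data were seen, which adds reads at loci such as Mir409 whose listed gene lies on the other strand. Without genes that share a 20-base run, which removes Mir487b, Mir411, Mir376c and Mir758 from the distal list, the ratio averaged 0.627.

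By counts on their own strand, the highest genes of the distal list were Mir487b at 11971 ± 434 CPM, Mir369 at 6450 ± 459 CPM and Mir411 at 5360 ± 665 CPM. The Mir409 locus, counted on the strand opposite to its listed gene, stands outside this order, at 7670 and 7007 CPM. Mir127 fell within this range, with 6448 and 7264 CPM against 6126 and 6775 CPM for Mir369, so their ranges overlapped. Mir431, at 5491 and 5439 CPM, likewise overlapped Mir411, at 4889 and 5830 CPM. Mir411 and Mir487b share a 20-base run with another hairpin, so reads that match several positions are missing from their levels. Of the other miRNA genes within 5 kb of the members, Mir3071 was detected, with 192 CPM in replicate 1 and 302 CPM in replicate 2, a 1.57-fold difference (exact binomial test, adjusted p = 4.48e-18). M21 places Mir3071 on the minus strand opposite Mir136, and its gene version differs from that of the counts, so which of them these reads belong to cannot be told apart here.

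Reads on the strand opposite to the members, which is that of Rtl1 at 4 of them, were almost absent. Rtl1 RNA itself was not measured. The opposite-strand column held 0 counts in both libraries for 9 of the 10 members, the 4 hairpins inside Rtl1 included. For those 4 together, a count of 0 allows at most 3 counts, or 0.00764% of their own-strand counts in replicate 1 and 0.00501% in replicate 2. Over all miRNA genes, the opposite strand held 2.38% and 2.35% of the counts. That share includes loci whose listed gene lies on the other strand, such as the Mir409 locus with 21202 and 27654 opposite-strand counts. It is therefore not a background rate for genes listed on the strand of their reads. Mir337 was the exception among the members. It had 9 opposite-strand counts in replicate 1, or 0.284% of its reads (0.130% to 0.538%), and 7 in replicate 2, or 0.131% (0.0527% to 0.270%). Which column is the gene's own strand was read from the layout and totals of the tables.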

How the data were processed

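MicroRNA-seq was analysed for 2 libraries of hindbrain at embryonic day 12.5. Per the text files deposited beside them, the tables are read counts per miRNA gene that the authors made from mm10 alignments and GENCODE M4. The aligner and trimming steps were not given in these sources. Rows naming no gene (unmapped, multi-position, outside miRNA genes) were left out of totals. The column read as the gene's own strand was used. Identifiers were matched without version to GENCODE M21 (GRCm38), for 1894 of 1973 genes. For 3 members (Mir337, Mir540 and Mir127) the version differs, so the counted interval may differ from that given.

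The edgeR quasi-likelihood test needs 2 groups, so libraries were compared by exact binomial tests, with 0.5 added to each count in ratios. edgeR 4.0.16 (TMM) and DESeq2 1.42.0 gave alternative scalings in R 4.3.3. Python 3.11.15, SciPy 1.17.1, pandas 2.3.3, numpy 2.4.6 and matplotlib 3.10.9 did the rest. Complements were searched as exact matches in M21 protein-coding transcripts. The test with the 2-fold criterion was checked on simulated data that held counting error only. That check does not cover the p-values taken without a minimum fold. The members and lists were chosen with earlier results of these data known. Named genes are the 10 members, other detected miRNA genes within 5 kb, and the 3 highest distal genes. Mir409, Mir3544, Mir376c, Mir758 and the genes at or below the detection limit were named after their values were seen. So were the single marker genes named for their change between the libraries. The alternatives were strand, gene filters, scaling, denominator, pseudocount and leaving out each library.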

Additional observations from a re-analysis of the deposited data

Results flagged for a closer look

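Mir337 had reads in the opposite-strand column, which the levels do not use, above the 3 counts taken as the approximate upper limit for a count of 0. There were 9 such counts in replicate 1 and 7 in replicate 2. M21 annotates Mir3544 on that strand inside the Mir337 interval. Groups of 2 libraries are too small for a check of single outlying samples, and there is no second group to compare.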

How the results depend on the processing

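All 9 neighbouring pairs of the order by level had the same order in each library alone and with both strands together. The alternatives for scaling, total and denominator change all members of a library alike, so they say little about the order, and the settings of the test between libraries do not bear on it. The summed share of the members was 2.03% without the most abundant gene in the total, 1.91% without genes that share a 20-base run and 0.809% of all reads tallied, and 1.70% to 1.82% when leaving out a replicate. The proximal sum over the distal sum was 0.627 without genes that share a run, 0.371 over all detected downstream genes of the annotation and 0.295 with both strands as well, and 0.383 to 0.385 when leaving out a replicate. The number of genes called between the libraries, 14, became 4 among genes averaging 100 counts or more and 203 with no minimum fold. No member was called except the 5 without a minimum fold. The log2 ratio of Mir431 changed sign to 0.0191 under TMM, 0.0306 under DESeq2 size factors and 0.00064 without the most abundant gene. No paired analysis was possible because the series has 1 group. Arms of a hairpin, identical molecules and the parental chromosomes are not resolved by these counts.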

Other observations

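The annotated miRNA genes Mir3070a and Mir3070b, between Mir665 and Mir431, and Mir432, just past Mir434, were near or at the counting limit. Mir3070a had 9 counts in replicate 1 and 7 in replicate 2, and Mir3070b had 0 and 1. Both share a 20-base run with another hairpin, so reads that match several positions are missing from these values. Mir432, which lies between Mir434 and Mir136, had 0 counts in both libraries. The approximate upper limit of 3 counts for a count of 0 corresponds to 1.09 CPM (replicate 1) and 0.760 CPM (replicate 2).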
